A study of Homo sapiens with 20 samples.

Results

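The guides described here are the non-targeting guides that 2 pooled CRISPR-Cas13d screens have in common, 1 screen in HAP1 cells and 1 in HEK293FT cells. They were chosen by name alone, as every guide whose ID begins with gNT_ in both tables of guide abundance, and no measured value entered the choice. There are 999 of them, among 17690 guides in the HAP1 table, 17572 in the HEK293FT table and 17571 in both. The HEK293FT table holds 1000 such names. In the HAP1 table the place of gNT_000960 is taken by an entry under another name with no values, so that guide is no member.

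HAP1 cells derive from chronic myelogenous leukaemia and carry a nearly haploid genome, and HEK293FT cells derive from human embryonic kidney. Both expressed RfxCas13d once doxycycline was added. Lentivirus carrying the guides was given in infections kept separate as replicates, and infected cells were selected with puromycin before induction. All 8 libraries used here, of 20 in the series, carry RfxCas13d, and the treatment label of every one is doxycycline induction. They are PCR amplicons of the guide cassette from genomic DNA, with 2 libraries at day 0 and 2 at day 14 of induction in each line. The labels do not say whether the cells of a line were a clone or a mixture.

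Cas13d is an RNA-guided enzyme that cuts RNA holding a sequence its guide matches, so a guide against a transcript that cells need is lost from a growing population. A non-targeting guide carries a spacer meant to match no transcript. Cells with it express the nuclease and a guide but should lose no message, and such guides give the level against which losses are read. The gNT_ prefix is read here as that design, and no spacer sequence is printed because the tables pair names with values only.

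The values are signal that the authors normalised in a way not given in the sources used here, and the read depth of these libraries is unknown. Changes are therefore given on the log2 scale after each library was scaled to the non-targeting guides themselves, which places these guides near 0 on average. The scaling moved no library by more than 0.02 on the log2 scale. Each line has its own table, so line and table cannot be told apart. With 2 libraries per day, p-values measure only the spread between those libraries.

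At day 0 the non-targeting guides formed a narrow, abundant group in both lines. Their median signal was 430.5 and 430.4 in the HAP1 libraries and 434.0 and 436.0 in the HEK293FT libraries. The targeting guides of the same libraries had medians of 108.3 and 110.7 in HAP1 and of 134.5 and 132.9 in HEK293FT. Non-targeting guides thus stood 3.98 and 3.89 times above targeting guides in HAP1, and 3.23 and 3.28 times above them in HEK293FT. They were 5.65% of the HAP1 guides and 5.69% of the HEK293FT guides. Their share of the day 0 signal was 15.1% and 14.6% in HAP1 and 13.1% and 13.3% in HEK293FT.

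The distance between the classes was larger in HAP1 in both replicates. On the log2 scale the non-targeting median lay 1.97 above the targeting median in HAP1 and 1.70 above it in HEK293FT, a difference of 0.27 between the lines. An exact two-sided permutation test over the 4 day 0 libraries gave p = 0.333, the smallest value that 2 libraries against 2 allow. Because the ratio is taken within a library, no scaling of whole libraries changes it. Against targeting guides of like day 0 abundance in the same line, a choice that itself sets the ratio near 1, the difference between the lines was 0.02. Between 6.62% and 7.65% of targeting guides exceeded the non-targeting median at day 0.

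Within the group, abundance varied about as much in one line as in the other. The ratio of the 90th to the 10th percentile was 2.40 and 2.02 in the HAP1 day 0 libraries and 2.07 and 2.19 in those of HEK293FT. The SD of log2 signal was 0.51 and 0.42 in HAP1 and 0.43 and 0.46 in HEK293FT, against 0.83 to 0.84 and 0.75 among targeting guides. HAP1 day 0 replicate 1 was the broadest of the 8 libraries, with 48 guides under 50% of the median. The other 7 libraries had between 25 and 40 such guides. At the upper end between 0 and 5 guides per library exceeded a factor of 2 above the median.

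The 3 scarcest guides were taken by mean day 0 signal over both lines, a choice that itself favours low signal in each. gNT_000938 had the lowest mean day 0 signal, with 53.2 and 78.2 in HAP1 and 80.8 and 85.5 in HEK293FT. gNT_000889 stood at 77.0 and 89.0 in HAP1 and at 205.2 and 114 in HEK293FT. gNT_000074 stood at 104.5 and 98.8 in HAP1 and at 166.8 and 177.1 in HEK293FT. All 3 lay below the 5th percentile of each HAP1 library, which was 218.1 and 246.3.

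At the other end, gNT_000879 had a signal of 683.2 and 752.3 in HAP1 and of 814.5 and 905.4 in HEK293FT. gNT_000791 stood at 861.5 and 715.4 in HAP1 and at 836.8 and 711.2 in HEK293FT. gNT_000102 had the highest day 0 mean, but that mean rested on 1 library: its signal was 1808 in HEK293FT day 0 replicate 2 and 480.0 in replicate 1. Averaged over the 2 replicates, 30 guides in HAP1 and 26 in HEK293FT lay under 50% of the median at day 0. These lists had 14 guides in common, 46.7% of the HAP1 list and 53.8% of the HEK293FT list. Above 1.5 times the median were 42 guides in HAP1 and 30 in HEK293FT, with 18 shared.

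Day 0 abundance of non-targeting guides was similar in the 2 lines. Across the 999 guides, mean log2 signal in HAP1 and HEK293FT correlated with Pearson's r of 0.788 and Spearman's rho of 0.757. These are correlations across guides of 1 library of constructs, and guides are not independent replicates. Between single libraries, the day 0 replicates correlated at r of 0.783 in HAP1 and 0.781 in HEK293FT. The 4 day 0 pairs across the lines stood at 0.619, 0.686, 0.728 and 0.806, so 3 of the 4 lay below the replicate values. Over both days, every pair across the lines that held HAP1 day 0 replicate 1 lay at or below 0.686. Targeting guides, whose abundance spans a wider range, correlated at 0.956 between the lines at day 0.

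limma called 0 of the 999 guides lower and 0 higher in HAP1 than in HEK293FT at day 0. Over all 17571 guides the called shares were 0.00% lower and 0.00% higher, so this count is not particular to the non-targeting guides. At an unadjusted p under 0.05 there were 152 non-targeting guides, or 15.2%, against 26.7% of targeting guides. The lowest adjusted p was 0.0653, and gNT_000341 was among the guides that had it. It stood at 455.9 and 451.3 in HAP1 and at 295.1 and 228.0 in HEK293FT, so its lines did not overlap. With libraries scaled to the targeting median, which moves the lines against each other, 335 had an unadjusted p under 0.05 and again 0 were called. The count rose above 0 without either HAP1 day 14 library, which reaches this contrast only through the shared spread. It also did so without either HEK293FT day 0 library. The share over all guides in these fits is not given.

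Over 14 days in HAP1 the non-targeting guides stayed together. Their median signal at day 14 was 431.1 and 427.6, but these medians were nearly equal in all 8 libraries, so their constancy is no result. The log2 fold change had an SD of 0.24 across guides, and it ran from -0.75 to 0.87, with the central 90% between -0.39 and 0.41. Within 0.25 of 0 lay 713 guides, or 71.4%, against 62.4% of all targeting guides and 52.4% of those of like day 0 abundance. A change beyond 0.5, a factor of 1.41, was measured in 18 guides downward and 29 upward, and none of the 999 reached 1 in either direction. The replicate libraries alone, whose log2 differences had an SD of 0.32 at day 0 and 0.28 at day 14, would give an SD of 0.21 for the change.

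limma called 4 non-targeting guides lower and 4 higher in HAP1, 0.400% each way, against 6.52% lower and 0.854% higher over all guides. An unadjusted p under 0.05 was reached by 104, or 10.4%, against 17.7% of targeting guides. The number called moved with single libraries: it fell when day 0 replicate 1 was left out and rose when any other library was. The share over all guides in such fits is not given, so these shifts are not read as particular to the non-targeting guides. With a minimum mean signal of 50, or with a robust variance prior, 4 were called. The split between directions moved too, to 1 lower and 6 higher with libraries scaled to total signal. It also leaned to the higher side without day 0 replicate 2. No share over all guides is given for these settings either.

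The called guides changed by modest amounts. gNT_000138 went from 232.6 and 287.4 at day 0 to 463.6 and 424.5 at day 14, 0.77 ± 0.17 higher on the log2 scale (SE, n = 2 per day; limma adjusted p = 0.0207). gNT_000028 went from 308.2 and 357.2 to 515.2 and 588.5, a change of 0.72 ± 0.17 (adjusted p = 0.0256). In both guides the days did not overlap. gNT_000117 and gNT_000268 were the others called higher, at 0.63 and 0.66. In HEK293FT these 4 guides changed by -0.23, -0.23, -0.06 and 0.12, and none was called there.

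On the lower side gNT_000518 went from 430.5 and 361.7 at day 0 to 269.5 and 205.5 at day 14, the lowest change of the group in HAP1, at -0.75 ± 0.19 with an adjusted p of 0.0361 from limma. gNT_000072 went from 458.4 and 469.4 to 308.1 and 301.1, at -0.61 ± 0.15 (adjusted p = 0.0389). gNT_000658 and gNT_000472 were called at -0.61 and -0.63. In HEK293FT gNT_000518 stood at 297.3 and 229.3 at day 0 and at 311.7 and 249.2 at day 14, days that overlap. Of the 8 called guides, 3 were called under all 7 other planned settings that kept every library, namely gNT_000028, gNT_000138 and gNT_000518. None of the 8 was called in all 4 fits that left out a library.

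Some of the widest changes in HAP1 rested on 1 library and were not called. gNT_000154 had the highest log2 fold change, 0.87 ± 0.53 (SE), and did not pass the test (limma adjusted p = 0.489). Its signal was 82.9 in day 0 replicate 1 and 369.6 in replicate 2, and 389.7 and 263.6 at day 14. One low library therefore set its change, and the days overlapped. gNT_000191 was at 0.67 through a signal of 871.7 in day 14 replicate 1, while its other 3 libraries stood at 284.1, 369.9 and 309.7. The gap between replicates of a day exceeded the change itself in 8 of the 29 guides above 0.5 and in 6 of the 18 below -0.5.

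In HEK293FT most of the group changed by little as well, though a smaller share of it than of all targeting guides. The median signal at day 14 was 434.1 and 431.9, and here too its constancy is no result. The log2 fold change had an SD of 0.26, with the central 90% between -0.41 and 0.45. Within 0.25 of 0 lay 686 guides, or 68.7%, against 75.2% of all targeting guides and 56.7% of those of like day 0 abundance. Beyond 0.5 were 26 guides downward and 34 upward. The replicate differences, with an SD of 0.29 at day 0 and 0.30 at day 14, would give an SD of 0.21 for the change.

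The full range in HEK293FT was from -1.04 to 1.83, and both ends rested on 1 library each. gNT_000633 had a signal of 7127 in day 14 replicate 1 and of 494.4 in day 14 replicate 2, after 360.7 and 780.7 at day 0. Its change of 1.83 ± 0.98 (SE) did not pass the test (limma adjusted p = 0.472). In HAP1 the same guide stood between 302.0 and 442.3 in all 4 libraries. gNT_000102, at -1.04 ± 0.48, was at 491.6 and 416.8 at day 14, close to its 480.0 in day 0 replicate 1. These were the only guides of the 999 past 1 in either line. Without gNT_000633 the SD was 0.26. The non-member gNT_000960 went from 30.5 and 37.8 to 2.61 and 17.3 in HEK293FT, a change of -2.33 ± 1.52 that did not pass the test.

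limma called 0 of the 999 guides lower and 0 higher in HEK293FT, against 1.19% lower and 0.0171% higher over all guides. An unadjusted p under 0.05 was reached by 151 of them, or 15.1%, and by 13.0% of targeting guides. The lowest adjusted p was 0.0556, for gNT_000341, which went from 295.1 and 228.0 to 494.4 and 433.7, a change of 0.84 ± 0.17. gNT_000079 followed, with 184.0 and 155.0 at day 0 and 265.7 and 277.3 at day 14, a change of 0.69 ± 0.14 (adjusted p = 0.0581). On the lower side gNT_000034 went from 381.4 and 326.2 to 232.8 and 183.1, a change of -0.77 ± 0.16 (adjusted p = 0.0683). In all 3 the days did not overlap. The count rose above 0 when any 1 library was left out, in fits for which no share over all guides is given. With libraries scaled to the targeting median or to total signal, 2 guides were called higher, again with no share over all guides given.

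Counted by library order in the deposited signal, both day 14 libraries lay below both day 0 libraries for 189 non-targeting guides in HAP1, or 18.9%, and above them for 195, or 19.5%. Over all HAP1 guides the shares were 21.0% and 24.0%. In HEK293FT the counts were 217 and 219, or 21.7% and 21.9%, against 27.2% and 17.3% over all guides. The balance of directions in these counts depends on how the libraries are centred. The non-targeting medians were nearly equal in all 8 libraries, so an even split among these guides is no result.

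Set beside targeting guides of like abundance, the non-targeting guides had a shorter lower tail, a difference given as counts with no test. The comparison took the targeting guides whose day 0 signal fell within the central 90% of that of non-targeting guides, 1780 in HAP1 and 1798 in HEK293FT. That signal, taken in the same line, also enters their change. Their replicate differences at day 0 had an SD of 0.31 in HAP1 and 0.30 in HEK293FT, close to the 0.32 and 0.29 of the non-targeting guides. At day 14 the SD was 0.44 in HAP1, against 0.28 for non-targeting guides, and 0.30 for both in HEK293FT. The classes were therefore not equally noisy at day 14 in HAP1. In HAP1 15.3% of them lay below -1, against 0% of the non-targeting guides, and 18.3% lay below the lowest non-targeting guide. In HEK293FT 7.45% lay below -1, against 1 of the 999 non-targeting guides, and 7.06% lay below the lowest non-targeting guide. limma called 19.7% of them lower in HAP1 and 9.01% in HEK293FT. Over all targeting guides the shares below the lowest non-targeting guide were 7.93% and 1.44%.

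The upper tails were as follows. Above 0.5 lay 2.90% of non-targeting guides in HAP1, against 3.88% of targeting guides of like abundance and 4.55% of all targeting guides. In HEK293FT it was 3.40% of non-targeting guides, against 1.00% and 0.646%. With libraries scaled to the targeting median the HEK293FT shares were 4.30%, 1.5% and 0.996%, and the order of the classes was the same. The difference between the classes in this share was not tested.

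The middle of the group was compared with the middle of the targeting guides. The non-targeting less the targeting median of log2 signal went from 1.97 at day 0 to 1.95 at day 14 in HAP1, a difference of -0.02, with an exact two-sided permutation p of 0.667. In HEK293FT it went from 1.70 to 1.73, a difference of 0.03, with an exact two-sided permutation p of 0.333, again the smallest possible. The direction in HAP1 depended on the summary, since the difference was 0.13 with means of log2 signal and 0.08 against targeting guides of like abundance. In HEK293FT the same alternatives gave 0.07 and 0.14, larger than the 0.03 of the medians. The guides of like abundance were chosen by their day 0 signal in the same line, which also enters this difference. The share of total signal held by non-targeting guides was 15.2% and 15.4% at day 14 in HAP1, and 14.1% and 14.0% in HEK293FT.

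Changes were more spread among the scarcest guides than among the most abundant ones. To keep the level and the change apart, guides were placed in 5 classes by their day 0 signal in the other line. From the lowest class to the highest, the SD of the HAP1 change was 0.30, 0.24, 0.22, 0.23 and 0.21. For the HEK293FT change it was 0.29, 0.29, 0.28, 0.26 and 0.21. A change beyond 0.5 occurred in 18, 9, 5, 8 and 7 guides of these classes in HAP1. In HEK293FT it occurred in 17, 15, 15, 11 and 2, with 199 or 200 guides per class. Mainly the lowest class stood apart in HAP1 and the highest in HEK293FT. The median change lay between -0.03 and 0.03 in every class of both lines. Across guides the change in one line and the day 0 level in the other correlated at 0.0173 for HAP1 and 0.0482 for HEK293FT. With the day 0 level of the same line, which enters the change itself, the values were -0.275 and -0.227.

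The changes of the same non-targeting guide in the 2 lines showed almost no correlation. Across the 999 guides Pearson's r between HAP1 and HEK293FT was 0.0421 and Spearman's rho 0.0342. Over the 16 ways to pair a change from 1 library per day in each line, r ran from -0.00323 to 0.0699. Within a line, the changes of replicates 1 and 2 correlated at -0.0273 in HAP1 and 0.0496 in HEK293FT. With the day 14 libraries exchanged between the pairs, r was 0.345 and 0.471. Agreement between single changes within a line thus depended on which libraries were paired, near 0 by number and higher when exchanged. Targeting guides had an r of 0.533 and a rho of 0.148 between the lines. The signs were the same in 515 non-targeting guides, or 51.6%, and in 53.3% of targeting guides. The lines share the guide library but no sequenced library.

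Lists of guides from the ends of the range in one line had medians near 0 in the other. The 50 lowest guides in HAP1 had a median change of -0.45 there and of -0.01 in HEK293FT, where 26 were below 0 and 24 above. For the 50 highest in HAP1, at a median of 0.53, the HEK293FT median was -0.03. In the other direction, the 50 lowest and the 50 highest in HEK293FT had HAP1 medians of -0.03 and 0.03. Single guides were spread widely. In HEK293FT the 50 lowest of HAP1 ran from -0.70 to 0.55 and the 50 highest from -0.50 to 0.52. In HAP1 the 50 lowest of HEK293FT ran from -0.65 to 0.62 and the 50 highest from -0.45 to 0.65. The lowest 50 of both lines shared 5 guides, 10.0% of each list, and the highest 50 shared 3. Opposite tails shared 1 guide and 3 guides. Of the 189 guides with both day 14 libraries lower in HAP1, 45 (23.8%) were also lower in HEK293FT and 34 (18.0%) were higher there. Of the 195 higher in HAP1, 43 (22.1%) were also higher in HEK293FT and 45 (23.1%) were lower. Among all 999 guides the HEK293FT shares were 21.7% lower and 21.9% higher, and over all HEK293FT guides they were 27.2% and 17.3%.

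Beyond 0.5 were 47 guides in HAP1, 60 in HEK293FT and 105 in either. Only 2 guides passed 0.5 in both lines, and both kept their direction. They are named here after their values were seen. gNT_000769 went from 421.1 and 360.5 to 236.1 and 305.8 in HAP1 and from 368.9 and 452.9 to 263.3 and 300.1 in HEK293FT, at -0.54 in each line. gNT_000372 went from 326.0 and 198.6 to 331.6 and 485.2 in HAP1 and from 214.8 and 305.5 to 393.3 and 343.0 in HEK293FT, at 0.65 and 0.52. The days did not overlap for either guide in either line. Neither was called by limma, with adjusted p between 0.129 and 0.264.

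The difference between the lines in the change from day 0 to day 14 was tested directly as an interaction in limma. It was called for 5 non-targeting guides, 1 lower in HAP1 and 4 higher, against 3.96% lower and 0.746% higher over all 17571 guides. An unadjusted p under 0.05 was reached by 121 of the 999, or 12.1%, against 16.4% of targeting guides. gNT_000005 went from 283.7 and 315.0 to 406.7 and 495.7 in HAP1. In HEK293FT it went from 492.6 and 489.4 to 388.5 and 338.7, so that HAP1 less HEK293FT was 1.02 ± 0.23 (SE, adjusted p = 0.0199). gNT_000158 was the 1 guide lower in HAP1, where it went from 460.5 and 382.8 to 301.0 and 317.4. In HEK293FT it went from 236.8 and 293.5 to 412.2 and 357.8, and the difference was -0.99 ± 0.23 (adjusted p = 0.0277).

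Both of these guides also began apart. At day 0 gNT_000005 was lower in HAP1 by 0.70 on the log2 scale and gNT_000158 was higher there by 0.68, neither called, and by day 14 their signals in the 2 lines were on the other side of each other. The number of guides with a called interaction moved with the library left out, in fits for which no share over all guides is given. With the replicate number as a block it was 0. With libraries scaled to the targeting median 2 were called lower and 2 higher. No share over all guides is given for these settings either.

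Neighbouring guide numbers were compared next, since targeting guides are numbered in runs whose members change alike and, in HAP1, mostly in falling order. Neighbouring numbers within sets of 4 correlated in their change at -0.0433 in HAP1 and -0.0383 in HEK293FT across 749 pairs. Among targeting guides the same values were 0.914 and 0.434. Falling order within a set can by itself raise such a correlation, so the HAP1 values of the 2 classes are not a like comparison. Within 249 complete non-targeting sets the HAP1 change fell from the first to the last number in 6, or 2.41%, and in HEK293FT in 12, or 4.82%. Of the targeting sets 78.8% fell in this way in HAP1 and 5.00% in HEK293FT, and 1 order of the 24 that 4 guides can take is 4.17%. Targeting sets that rose throughout were 0% in HAP1 and 3.88% in HEK293FT, against 3.61% and 3.21% of the non-targeting sets. Means of 4 non-targeting guides had an SD of 0.11 in HAP1 and 0.12 in HEK293FT, and single guides divided by the root of 4 would give 0.12 and 0.13. The set means ran from -0.45 to 0.35 in HAP1 and from -0.34 to 0.36 in HEK293FT.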

How the data were processed

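Guide amplicons from genomic DNA were analysed in 8 RfxCas13d libraries, 2 per line and day, grouped by their titles. Tools and build per the submitters' processing notes were cutadapt 1.13, Bowtie 1.1.2 and GRCh38. The values are signal that the authors deposited after a normalisation not given in the sources used here. Entries without an ID or values were left out (1 in HAP1, 120 in HEK293FT), and 17 and 16 repeated IDs were averaged.

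Log2 signal, with no pseudocount, was scaled per library by a mean deviation of the non-targeting guides, trimmed by 30% at either end. limma 3.58.1 under R 4.3.3 was fitted to all guides of a table with a mean signal of at least 10, with a trend in the variance prior. Lines were compared in 1 fit over the guides of both tables. A guide was called at p under 0.05 after Benjamini-Hochberg adjustment over all guides. The fit was tested on simulated data. Correlations across guides are descriptions. Guides named are the 5 lowest and 5 highest changes per line, called guides, and the 3 lowest and 3 highest at day 0. Some of these are given only within counts. The members, tests and lists were chosen with earlier results of these data known. The labels do not say that a replicate number marks a shared infection at both days. Alternatives were other scalings, a pseudocount, a higher minimum, a robust prior, replicate blocks and each library left out.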

Additional observations from a re-analysis of the deposited data

Results flagged for a closer look

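For 5 non-targeting guides the interaction test of limma found unlike changes over the screen in the 2 lines. These were 1 lower and 4 higher of 999, against 3.96% lower and 0.746% higher over all guides. With the replicate number as a block 0 were called, with no share over all guides given. The difference, HAP1 less HEK293FT on the log2 scale, was 1.02 for gNT_000005, -0.99 for gNT_000158, 1.12 for gNT_000642, 1.01 for gNT_000483 and 0.96 for gNT_000028. gNT_000642 went from 194.4 and 175.0 to 238.6 and 338.5 in HAP1 and from 213.7 and 270.3 to 159.4 and 181.7 in HEK293FT. gNT_000483 went from 316.7 and 268.2 to 348.1 and 383.6 in HAP1 and from 305.8 and 426.0 to 229.4 and 217.9 in HEK293FT. With each of the 8 libraries left out in turn, gNT_000005 was called in 4 fits, gNT_000158 and gNT_000483 in 3 each, and gNT_000642 and gNT_000028 in 2 each. Groups of 2 libraries are too small for a search for outlying libraries.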

How the results depend on the processing

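Depth is unknown, so no counting error can be given, and 2 libraries per group limit every call. With the planned replicate block 3 guides were called in HAP1, 0 in HEK293FT, 0 in the interaction and 0 between the lines at day 0. Same-numbered libraries of the 2 days deviated oppositely (r = -0.357 in HAP1 and -0.425 in HEK293FT across guides). With the numbers crossed between days, a block chosen because of these deviations, the counts were 110, 51, 56 and 150, or 11%, 5.11%, 5.61% and 15.0%, against 18.6%, 4.67%, 12.2% and 27.0% over all guides. A minimum mean of 50 and the robust prior each gave 4 in HAP1. Scaling to the targeting median or to total signal gave 2 in HEK293FT. Except with the crossed numbers, the share over all guides is not given in this section. Counts without that share are not read as particular to the non-targeting guides. Leaving out a library gave between 2 and 43 guides in HAP1, between 3 and 31 in HEK293FT, between 1 and 9 in the interaction and between 0 and 33 at day 0. A lone library is then assumed to vary like the others, and the cause of these shifts was not tested. With a library left out, the SD of the changes lay between 0.24 and 0.33 in HAP1 and between 0.29 and 0.32 in HEK293FT, and r between the lines between 0.0139 and 0.0625. The class difference in HAP1 turned to 0.13 with means and 0.079 against targeting guides of like abundance. In HEK293FT it was 0.075 and 0.14 under the same alternatives. It and the ratio at day 0 kept their direction under every alternative run.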
